A study of Mus musculus with 9 samples.

Results

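The genes described here are 35 mouse genes of cell death and survival, out of 22376 gene symbols in the libraries: the Bcl-2 family, caspases with the proteins that release, build or block them, and the adaptors and effectors that carry death receptor signals. They were taken by symbol and fall into 11 survival genes, whose products hold cell death back, and 24 death genes, whose products drive it. RNA was sequenced from macrophages derived from the bone marrow of wild-type C57Bl/6 mice under macrophage colony-stimulating factor (M-CSF), the growth factor of this cell type. Marrow was grown with 10 ng/ml M-CSF for a week, the macrophages were washed free of M-CSF, and 50000 of them were plated for 48 h. The 3 groups had 3 libraries each: PD-L1 antibody wells, which received 100 µg/ml of a PD-L1 antibody (libraries 1 to 3), isotype wells, which received 100 µg/ml of an irrelevant antibody of matching isotype (libraries 4 to 6), and untreated wells, which received none (libraries 7 to 9). PD-L1, a ligand of the inhibitory receptor PD-1 on T cells, is itself a surface protein of macrophages. All groups shared the culture and the M-CSF wash. Separate animals or cultures are not named in the labels for the wells of a group, so that the p-values cover no more than the spread among these samples, which may be technical.

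Macrophages depend on M-CSF for survival, and apoptosis in them, as in other cells, is set at the mitochondrion by the Bcl-2 family. Survival members such as Mcl-1, Bcl-xL and A1 bind and hold back the effectors Bax and Bak, which pierce the outer mitochondrial membrane, while the BH3-only proteins, among them Puma, Noxa, Bmf and Bim, tie up the survival members or switch the effectors on. Cytochrome c that leaks out joins Apaf-1 to activate caspase 9, and inhibitor of apoptosis proteins (IAPs) oppose the caspases. Death receptors act through the adaptor FADD and caspase 8, which c-FLIP blocks, and when caspase 8 is inactive RIPK3 and MLKL can break the plasma membrane, a death called necroptosis.

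Values are CPM, the exonic read equivalents per 1e+06 of a library's scaled total, as mean ± SD with n = 3 unless given per library. Log2 fold changes are differences on the log2(CPM + 1) scale with their standard errors (SE), which understate the change of low genes, and adjusted p-values are limma's, adjusted by the Benjamini-Hochberg method over 13743 tested genes, with calls at 0.05. In bulk RNA, fewer cells of a type and less RNA per cell cannot be told apart. Comparisons with the isotype antibody and with untreated wells share the 3 PD-L1 antibody libraries and are set side by side, not as repeats of each other.

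Libraries held 23554320 to 40116467 exonic read equivalents. Lane 4 of the flow cell held PD-L1 antibody 2 and lane 1 held all others, so a comparison within lane 1 leaves that library out. Untreated 7 stood apart from untreated 8 and 9 in several of the genes below. Macrophage markers were high in all libraries, with all 8 detected and a summed level of 21513 to 25258 CPM in PD-L1 antibody wells, 19849 to 23300 CPM in isotype wells and 17711 to 23490 CPM in untreated wells. Against the isotype antibody 3 of the 8 were called higher (Adgre1, Fcgr1 and Itgam) and 1 lower (Cd68), with log2 fold changes of -0.58 to 1.45 over the 8, and against untreated wells the same 3 were again higher and Cd68 again lower. The 10 markers of neutrophils and granulocyte precursors summed to 356 to 498 CPM in PD-L1 antibody wells, against 681 to 1277 CPM in isotype wells, with isotype antibody 4 the highest, and 513 to 711 CPM in untreated wells. Of their 9 tested genes, 4 were lower and none was higher with the PD-L1 antibody than with the isotype antibody, and 6 were lower than in untreated wells. The 4 erythroid markers summed to 1.02 to 2.08 CPM in PD-L1 antibody wells, 3.59 to 7.01 CPM in isotype wells and 6.06 to 7.34 CPM in untreated wells, and B cell markers stayed at 10.2 CPM or less. The 7 dendritic cell markers summed to 425 to 487 CPM in PD-L1 antibody wells, 359 to 569 CPM in isotype wells and 302 to 557 CPM in untreated wells. In both comparisons 4 of them were called lower (Flt3, Clec9a, Siglech and Itgax) and Xcr1 higher, with a median log2 fold change of -0.745 against the isotype antibody and -0.49 against untreated wells. The 4 stromal markers summed to 27.5 to 47.6 CPM in PD-L1 antibody wells, 22.2 to 36.0 CPM in isotype wells and 29.9 to 57.9 CPM in untreated wells, with Col3a1 and Pdgfrb called higher than with the isotype antibody and Col1a2 lower than in untreated wells. None of these markers was at 0 in all libraries, and their part in the results below was not tested.

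Of the 35 genes 33 were tested, since Bik and Hrk, both BH3-only genes, fell below the filter on low values. With the PD-L1 antibody, 18 were called against the isotype antibody (54.5%, beside 36.4% of all tested genes) and 19 against untreated wells (57.6%, beside 42.4%). Of the 33, 13 were higher than with the isotype antibody (39.4%, against 18.2% of all tested genes) and 5 were lower (15.2%, against 18.2%). Relative to untreated wells 13 were higher (39.4%, against 22.0% of all tested genes) and 6 were lower (18.2%, against 20.5%). The median log2 fold change was 0.07 against the isotype antibody and 0.06 against untreated wells, beside -0.015 and -0.011 for all genes. All 18 calls against the isotype antibody and 18 of the 19 against untreated wells were of genes whose libraries did not overlap between the groups. Most called genes were of this kind, 4942 of 4997 against the isotype antibody and 5590 of 5831 against untreated wells. Genes both called and without overlap made up 54.5% of the tested members in each comparison, beside 36.0% and 40.7% of all tested genes. Libraries did not overlap, called or not, for 22 members against the isotype antibody (52.1% of all tested genes) and 20 against untreated wells (51.2%). Among the 11 survival genes 6 were higher and 0 lower in both comparisons (medians 0.48 against isotype and 0.41 against untreated wells), while of the 22 tested death genes 7 were higher and 5 lower than with the isotype antibody (median -0.06) and 7 were higher and 6 lower than in untreated wells (median -0.03). The 6 higher survival genes include the near-identical copies Bcl2a1a, Bcl2a1b and Bcl2a1d, described below, whose reads may be shared. These copies are not independent of each other, so the counts of higher members and the survival medians may weigh the same signal repeatedly. The contrast of survival with death genes is limited by this and carries no test. No member was called between isotype and untreated wells, where the test called 0.00728% of all genes, and the libraries of 4 members did not overlap (13.2% of all genes).

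The scaling of the libraries matters for the calls in both directions. With total-count scaling in place of TMM, the median log2 fold change of all genes moved to -0.157 against the isotype antibody and -0.134 against untreated wells. All genes then split into 1565 higher and 4143 lower against the isotype antibody, where TMM gave 2496 and 2501, and into 1940 and 4088 against untreated wells, where TMM gave 3017 and 2814. The members then numbered 12 higher and 11 lower against the isotype antibody, beside 11.4% and 30.1% of all tested genes. Against untreated wells they numbered 11 higher and 8 lower, beside 14.1% and 29.7%. Without isotype antibody 4 the members numbered 12 higher and 4 lower than with the isotype antibody, beside 15.3% and 15.4% of all tested genes. Without PD-L1 antibody 2, which leaves lane 1 alone, they numbered 13 higher and 5 lower than with the isotype antibody (14.4% and 13.8% of all tested genes), and 12 higher and 3 lower than in untreated wells (17.9% and 16.0%).

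**Figure D1:**
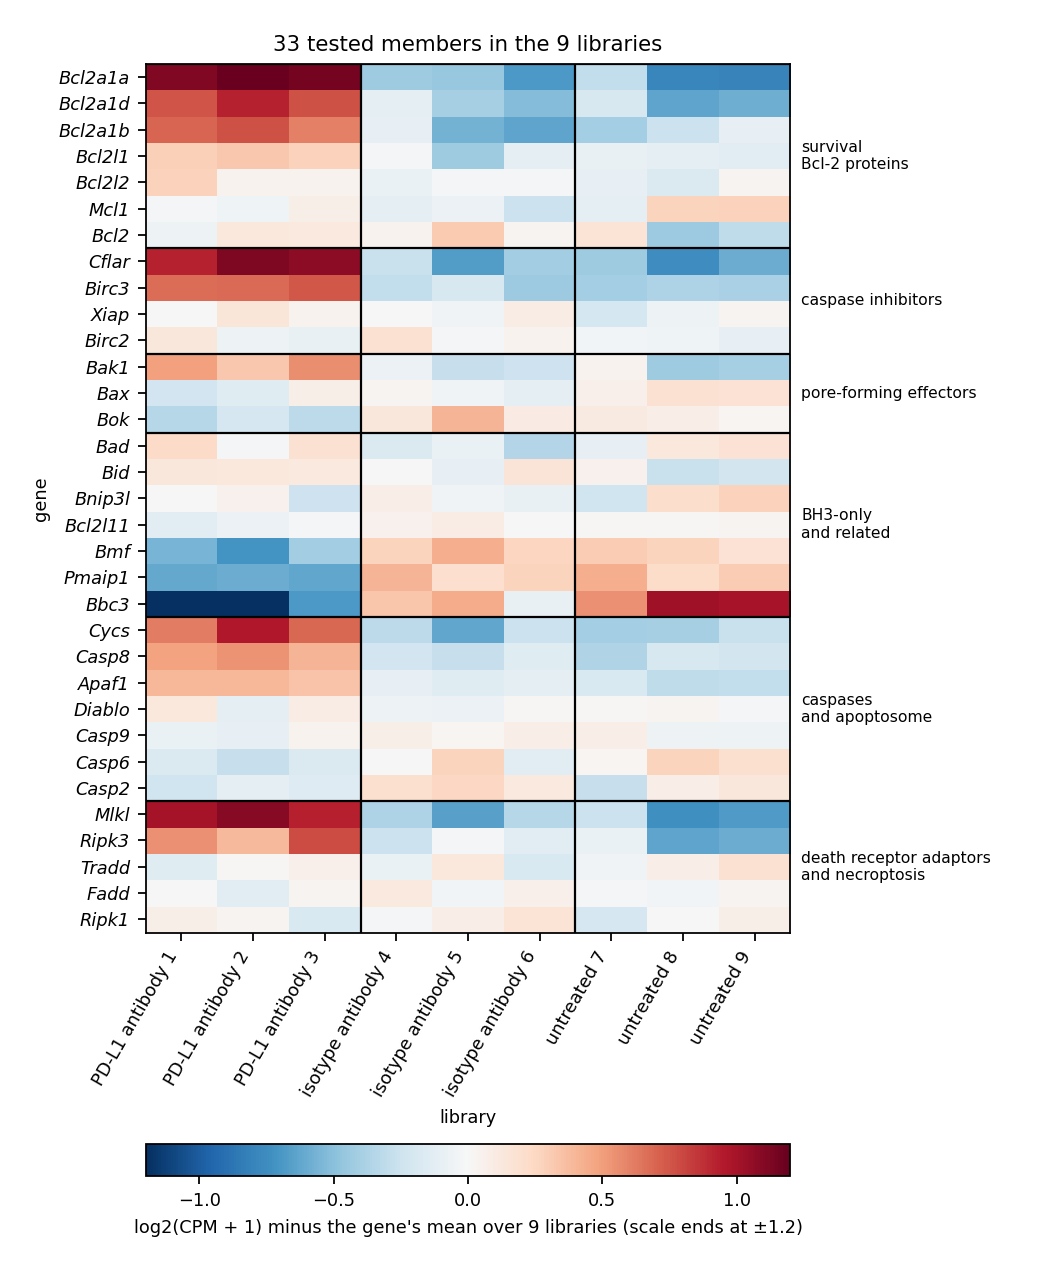
Log2(CPM + 1) of the 33 tested genes in each of the 9 libraries (columns), minus the gene's mean over the libraries, grouped by role (rows), on a colour scale that ends at ±1.2 and so cuts off the lowest values of Bbc3. The 3 PD-L1 antibody columns are red for Bcl2a1a, Cflar, Birc3, Cycs, Mlkl and Ripk3, and blue for Bbc3, Pmaip1 and Bmf.

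Among the 7 survival Bcl-2 genes, 4 were higher with the PD-L1 antibody in both comparisons: the 3 A1 genes Bcl2a1a, Bcl2a1b and Bcl2a1d, and Bcl2l1. A1 is a short-lived survival protein of blood cells that is encoded in mice by several neighbouring copies, and Bcl2l1 encodes Bcl-xL. The A1 copies lie on chromosome 9, in GRCm38 at chr9:88956920-88962416 (Bcl2a1a, plus strand), chr9:89199273-89207838 (Bcl2a1b, plus strand) and chr9:88723288-88731850 (Bcl2a1d, minus strand). Their coding sequences are 519 bases long each and differ among the 3 at 12 positions, with 97.9% identity between Bcl2a1a and Bcl2a1b, 98.7% between Bcl2a1a and Bcl2a1d, and 98.8% between Bcl2a1b and Bcl2a1d. The longest stretch without a difference is 217 bases, longer than the 150-base reads, and how the authors placed reads that fit several copies is not given in the sources used here. The stretches that hold all 12 differing positions are printed from GENCODE M21 transcripts, 5′ to 3′, to show how little separates the copies that the counts are split over. Bases 1 to 100 come first, with the 7 differing positions in capitals.
Bcl2a1a: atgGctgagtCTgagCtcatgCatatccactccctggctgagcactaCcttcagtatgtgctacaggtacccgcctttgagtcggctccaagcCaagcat
Bcl2a1b: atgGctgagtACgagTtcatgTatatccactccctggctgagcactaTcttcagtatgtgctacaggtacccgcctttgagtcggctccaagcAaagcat
Bcl2a1d: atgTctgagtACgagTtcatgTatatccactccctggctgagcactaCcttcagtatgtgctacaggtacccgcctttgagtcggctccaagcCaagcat
Bases 301 to 500 hold the other 5 positions, again in capitals.
Bcl2a1a: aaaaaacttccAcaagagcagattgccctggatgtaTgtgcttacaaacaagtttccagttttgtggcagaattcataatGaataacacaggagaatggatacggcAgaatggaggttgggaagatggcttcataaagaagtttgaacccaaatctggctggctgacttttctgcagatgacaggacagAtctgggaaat
Bcl2a1b: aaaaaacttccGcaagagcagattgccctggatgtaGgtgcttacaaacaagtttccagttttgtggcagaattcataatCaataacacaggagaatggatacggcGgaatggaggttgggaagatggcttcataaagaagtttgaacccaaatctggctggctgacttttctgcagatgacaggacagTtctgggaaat
Bcl2a1d: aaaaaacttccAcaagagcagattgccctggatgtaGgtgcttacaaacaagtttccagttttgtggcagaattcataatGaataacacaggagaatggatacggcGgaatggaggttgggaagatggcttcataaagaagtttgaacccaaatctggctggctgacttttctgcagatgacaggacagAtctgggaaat

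Because of this likeness the A1 copies are also given as a sum. Together they held 262, 280.2 and 253 CPM in PD-L1 antibody wells, against 138, 107 and 98.9 CPM in isotype wells and 120.2, 114 and 124 CPM in untreated wells. The groups did not overlap, and the log2 fold change of the sum was 1.22 against the isotype antibody (adjusted p = 1.09e-05) and 1.15 against untreated wells (adjusted p = 1.6e-05). By copy, Bcl2a1b was the most abundant, with 149.98, 157 and 139.9 CPM in PD-L1 antibody wells, against 85.4, 61.8 and 58.7 CPM in isotype wells and 68.7, 76.6 and 85.6 CPM in untreated wells. The highest isotype value came from isotype antibody 4, the library with the most granulocyte marker RNA, and without that library the log2 fold change against the isotype antibody was 1.29, beside 1.12 ± 0.13 (SE) with it. Bcl2a1b also shares exons with the overlapping annotation Gm29094 on the same strand.

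Bcl2a1d had 74.0, 83.5 and 74.3 CPM in PD-L1 antibody wells, against 40.1, 32.7 and 30.0 CPM in isotype wells and 37.8, 27.7 and 28.5 CPM in untreated wells. Bcl2a1a had 37.9, 40.0 and 39.1 CPM in PD-L1 antibody wells, against 12.5, 12.2 and 10.2 CPM in isotype wells and 13.8, 9.49 and 9.37 CPM in untreated wells. Both were higher in all 3 PD-L1 antibody libraries than in any other library, with log2 fold changes of 1.16 ± 0.13 (SE) for Bcl2a1d and 1.67 ± 0.14 (SE) for Bcl2a1a against the isotype antibody (adjusted p = 5.71e-05 and 5.46e-06), and of 1.29 ± 0.13 and 1.77 ± 0.14 (SE) against untreated wells (adjusted p = 2.55e-05 and 3.63e-06).

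Bcl2l1 (chr2:152780664-152830717, minus strand) had 121, 124 and 120.5 CPM in PD-L1 antibody wells, against 98.0, 73.7 and 91.4 CPM in isotype wells and 93.0, 92.3 and 90.5 CPM in untreated wells. This was 1.39 times the isotype mean and 1.33 times the untreated mean, with log2 fold changes of 0.48 ± 0.10 (SE, adjusted p = 0.00256) and 0.41 ± 0.10 (SE, adjusted p = 0.0062). The groups did not overlap in either comparison, although with total-count scaling the call against untreated wells was lost (log2 fold change 0.26, adjusted p = 0.0553). The 3 other survival Bcl-2 genes passed in neither comparison. Bcl2, the founding member of the family, was low, at 5.05 to 5.89 CPM in PD-L1 antibody wells, 5.46 to 6.86 CPM in isotype wells and 3.65 to 6.07 CPM in untreated wells, where untreated 7 was the highest. Without untreated 7 its log2 fold change against untreated wells was 0.43 ± 0.14 (SE, adjusted p = 0.0245). Bcl2l2, which encodes Bcl-w, had 40.1 ± 3.99 CPM in PD-L1 antibody wells, 35.7 ± 0.831 CPM in isotype wells and 34.7 ± 2.54 CPM in untreated wells.

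Mcl1 encodes a survival protein with a fast turnover, and it was the most abundant of the 35 genes per kilobase of exon in all 3 groups. It had 1791, 1749 and 1907 CPM in PD-L1 antibody wells, against 1683, 1727 and 1521 CPM in isotype wells and 1688, 2182 and 2194 CPM in untreated wells. The PD-L1 antibody libraries lay above the isotype libraries and within the range of the untreated ones, and neither comparison passed (log2 fold change 0.15 ± 0.13, SE, adjusted p = 0.406 against the isotype antibody, and -0.15 ± 0.13, SE, adjusted p = 0.38 against untreated wells). The sign against the isotype antibody turned to -0.03 with total-count scaling. Without untreated 7 the log2 fold change against untreated wells was -0.27 (adjusted p = 0.0481).

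The make-up of the survival Bcl-2 RNA differed between groups. Per kilobase of exon, the A1 copies made up 37.1% ± 2.06 of the summed CPM of the 7 survival Bcl-2 genes in PD-L1 antibody wells, 22.1% ± 2.57 in isotype wells and 19.9% ± 2.41 in untreated wells. Mcl1 made up 56.6% ± 2.17 in PD-L1 antibody wells, 71.2% ± 2.82 in isotype wells and 74.2% ± 3.10 in untreated wells. No library of either control group reached the lowest A1 share of the PD-L1 antibody libraries (35.02%), since the highest control share was 25.1%, in isotype antibody 4. These shares are descriptions without a test.

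**Figure D2:**
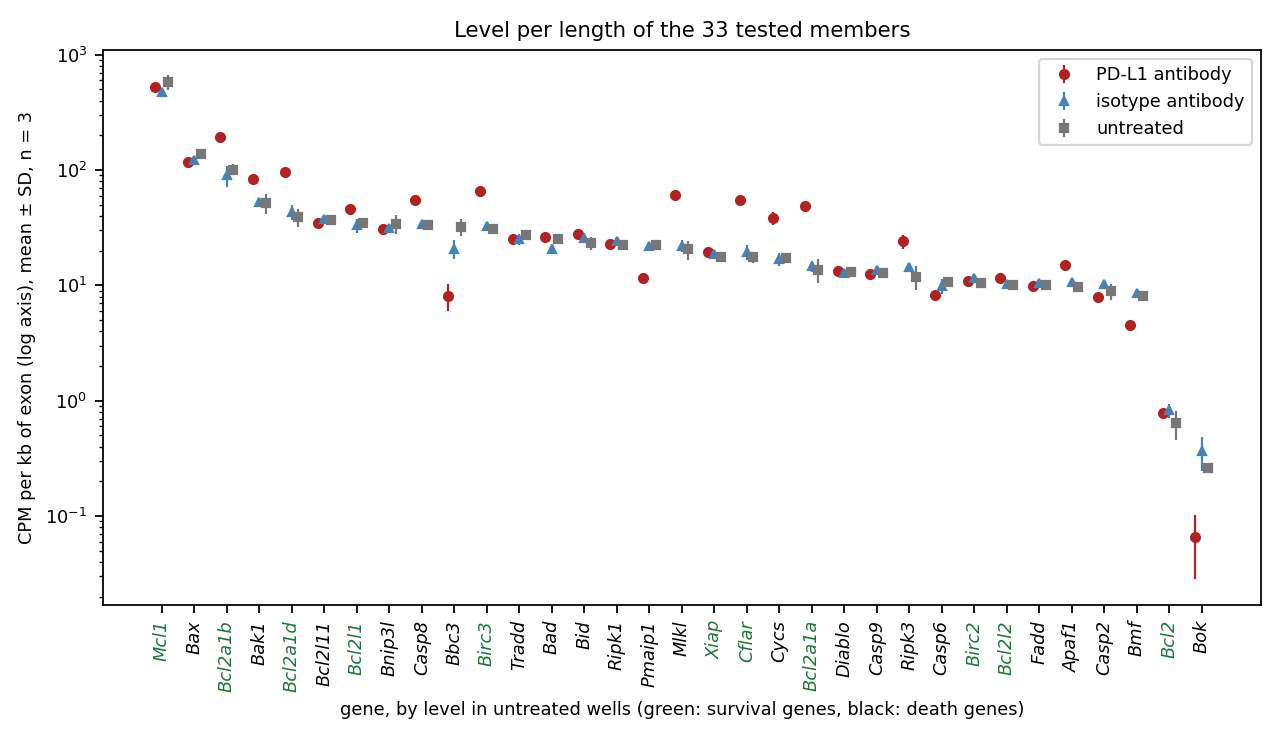
CPM per kilobase of exon (log axis) of the 33 tested genes as mean ± SD over the 3 libraries of each group, ordered by the level in untreated wells, with survival genes named in green and death genes in black. Mcl1 is the highest in each group (521 in PD-L1 antibody wells, 471 in isotype wells and 580 in untreated wells), and Bcl2 and Bok are the lowest.

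Of the 4 caspase inhibitors, Cflar and Birc3 were higher with the PD-L1 antibody in both comparisons, and Xiap and Birc2 passed in neither. Cflar encodes c-FLIP, which stands in for caspase 8 at death receptors and blocks its activation. It had 349, 399.9 and 385 CPM in PD-L1 antibody wells, against 152, 115 and 136 CPM in isotype wells and 136, 109 and 121 CPM in untreated wells. The lowest PD-L1 antibody library lay far above the highest control library, and the log2 fold change was 1.49 ± 0.12 (SE, adjusted p = 3e-06) against the isotype antibody and 1.63 ± 0.12 (SE, adjusted p = 1.57e-06) against untreated wells. Cflar (chr1:58713286-58758882, plus strand) lies next to Casp8 (chr1:58795374-58847503, plus strand), the gene of the caspase that c-FLIP blocks, and both were called higher. Parts of the Cflar transcript match the annotation Gm9845 without a mismatch over 598 bases, so some of its reads may be shared.

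Cflar was listed as 10 transcripts, and their changes were not alike. Ratios of transcripts are log2 ratios of mean CPM with 1 added to each mean. The transcripts that run to the 3′ end at position 58758882 had log2 ratios between 1.468 and 1.496 over the isotype antibody. The pair that ends early, at 58733227, was at 58.4 and 56.9 CPM in PD-L1 antibody wells, 18.6 and 18.1 CPM in isotype wells and 13.7 and 13.4 CPM in untreated wells, which gives log2 ratios of 1.60 over the isotype antibody and 2.01 over untreated wells. By contrast the 3 short noncoding transcripts at the 5′ end, of 375 to 696 exonic bases, had log2 ratios of 0.38 to 0.57 over the isotype antibody and 0.36 to 0.75 over untreated wells. The short transcripts had means of 1.571 to 8.985 CPM, where the added 1 shrinks ratios more, so part of the contrast comes from it. Transcripts repeat the reads of the exons they share, so these transcript values are not independent and carry no test. For the 13 other genes with several listed transcripts, the ratios over the isotype antibody of a gene's transcripts lay within 0.14 of each other. The ratios over untreated wells were less alike, with those of the 5 Bcl2l11 transcripts from -0.105 to 0.281 and those of each of the other 12 genes within 0.193 of each other.

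Birc3 and Birc2 encode the IAPs cIAP2 and cIAP1, ubiquitin ligases that act at tumour necrosis factor receptors, and are neighbours on chromosome 9 (Birc3 at chr9:7848701-7873170 and Birc2 at chr9:7818226-7836806, both on the minus strand). Birc3 had 181, 182 and 191 CPM in PD-L1 antibody wells, against 92.2, 98.9 and 83.5 CPM in isotype wells and 85.1, 87.3 and 86.3 CPM in untreated wells. The groups were far apart, with log2 fold changes of 1.01 ± 0.08 (SE, adjusted p = 2.72e-06) against the isotype antibody and 1.09 ± 0.08 (SE, adjusted p = 1.53e-06) against untreated wells, and this was the smallest adjusted p of the tested members in both comparisons. Part of its transcript matches the annotation Gm7019 at 99.19% identity over 369 bases, so some of its reads may be shared. Birc2 had 36.7 ± 3.35 CPM in PD-L1 antibody wells, 38.7 ± 2.96 CPM in isotype wells and 35.2 ± 0.893 CPM in untreated wells, with overlapping libraries. Xiap, whose product binds and blocks caspases directly, had 130.3 ± 7.23 CPM in PD-L1 antibody wells, 126 ± 6.00 CPM in isotype wells and 118 ± 9.80 CPM in untreated wells and did not pass in either comparison (adjusted p = 0.7 and 0.192).

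Promoter windows, from 250 bases before to 50 after the start, were at hand for 31 of the 35 genes in RefSeq's table for GRCm38.p6. They were searched on both strands for the core of the NF-kB site (GGGNNNNNCC), the STAT site (TTCNNNGAA) and the interferon response element (GAAANNGAAA). Of the p53 half-site a single form was searched, RRRCATGYYY, where R is A or G and Y is C or T. Other forms of it would not be found. NF-kB is a family of transcription factors that inflammatory receptors switch on. Its core was in the windows of 25 of the 31 genes, and 50.8% of all 32851 windows held it. It was found in 8 of the 13 genes that were higher with the PD-L1 antibody than with the isotype antibody. Of the lower genes with a window, 4 of 4 held it. A gene was counted if any of its windows matched, while the percentages of this search are of single windows. A gene with several windows has more chances, so counts of genes and shares of windows are unlike measures. The STAT core was in the window of Ripk1 alone (8.3% of all windows) and the interferon core in those of Cflar and Ripk1 (3.44% of all windows). The p53 form searched was in none (1.93% of all windows), and Pmaip1 had no window to search. The Birc3 promoter is printed here, as that of the member with the smallest adjusted p, from chr9:7873171-7873420 on the minus strand, with the NF-kB core match, 57 to 48 bases before the start, in capitals.
Birc3: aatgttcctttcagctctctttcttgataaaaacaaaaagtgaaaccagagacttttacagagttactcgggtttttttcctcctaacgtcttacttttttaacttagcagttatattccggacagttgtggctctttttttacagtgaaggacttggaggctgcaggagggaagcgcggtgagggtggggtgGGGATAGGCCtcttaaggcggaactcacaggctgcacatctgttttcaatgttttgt
A match of letters is a description and not a bound site.

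The 3 pore-forming effectors went different ways. Bak1, which encodes Bak, had 174, 155 and 183 CPM in PD-L1 antibody wells, against 117, 102 and 104 CPM in isotype wells and 128, 91.6 and 93.5 CPM in untreated wells, where untreated 7 was the highest control library. It did not overlap with either control group, and its log2 fold changes were 0.66 ± 0.13 (SE, adjusted p = 0.00175) against the isotype antibody and 0.72 ± 0.13 (SE, adjusted p = 0.000868) against untreated wells. Its exons overlap those of Ggnbp1 on the other strand over 18.2% of their bases, and the strand of the libraries is not given in the sources used here. Bax, the partner of Bak in the same step, had 93.0, 98.6 and 115 CPM in PD-L1 antibody wells, against 112, 106 and 101 CPM in isotype wells and 114, 124 and 124 CPM in untreated wells.

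Bax overlapped with both control groups. It was not called against the isotype antibody (log2 fold change -0.06 ± 0.09, SE, adjusted p = 0.626) and was just past the threshold against untreated wells (-0.24 ± 0.09, SE, adjusted p = 0.0491). That call was lost when any of PD-L1 antibody 1 or 2, the 3 isotype libraries, or untreated 8 or 9 was left out (adjusted p = 0.0588 to 0.189), and with edgeR (adjusted p = 0.059). With total-count scaling Bax was called lower than with the isotype antibody (-0.24, adjusted p = 0.0389) and than in untreated wells (-0.39, adjusted p = 0.00301). Bok, a less studied relative of Bax and Bak, was close to the limit of detection, with 0.0559, 0.166 and 0.0825 CPM in PD-L1 antibody wells, against 0.479, 0.780 and 0.441 CPM in isotype wells and 0.445, 0.416 and 0.364 CPM in untreated wells. Groups did not overlap, with log2 fold changes of -0.50 ± 0.13 (SE, adjusted p = 0.0106) against the isotype antibody and -0.36 ± 0.13 (SE, adjusted p = 0.0457) against untreated wells. The second call was lost when any of the 3 PD-L1 antibody libraries, the 3 untreated libraries or isotype antibody 4 or 6 was left out (adjusted p = 0.0511 to 0.119), and the first with edgeR on the deposited span reads (adjusted p = 0.0665).

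Among the 9 BH3-only and related genes, 3 were lower with the PD-L1 antibody in both comparisons: Bbc3, Pmaip1 and Bmf. Bbc3 encodes Puma and Pmaip1 encodes Noxa, both known as targets of p53, while Bmf responds to loss of adhesion and other stress. Bbc3 (chr7:16309583-16318334, plus strand) had 13.0, 14.2 and 21.0 CPM in PD-L1 antibody wells, against 43.5, 47.3 and 32.3 CPM in isotype wells and 51.0, 70.7 and 69.4 CPM in untreated wells. Its 3 groups did not overlap, and it was the most strongly lowered of the tested members, with a log2 fold change of -1.31 ± 0.19 (SE, adjusted p = 0.000342) against the isotype antibody and -1.93 ± 0.19 (SE, adjusted p = 1.95e-05) against untreated wells. The isotype libraries were also all below the untreated ones, by a log2 fold change of -0.63 ± 0.19 (SE), which did not pass (adjusted p = 0.345). Without untreated 7 that difference was -0.77 ± 0.19 (SE, adjusted p = 0.017).

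Pmaip1 had 30.4, 31.0 and 30.2 CPM in PD-L1 antibody wells, against 63.0, 54.5 and 57.1 CPM in isotype wells and 64.3, 55.2 and 58.4 CPM in untreated wells. The PD-L1 antibody libraries lay within 1 CPM of each other, and their mean was 0.525 times the isotype mean and 0.515 times the untreated mean. The log2 fold changes were -0.91 ± 0.09 (SE, adjusted p = 1.28e-05) and -0.93 ± 0.09 (SE, adjusted p = 1.03e-05). Bmf (chr2:118528757-118549686, minus strand) had 21.0, 18.7 and 23.3 CPM in PD-L1 antibody wells, against 37.9, 42.9 and 37.7 CPM in isotype wells and 38.9, 37.9 and 35.5 CPM in untreated wells. Both control groups overlapped each other and lay above all PD-L1 antibody libraries, with log2 fold changes of -0.88 ± 0.10 (SE, adjusted p = 4.52e-05) against the isotype antibody and -0.81 ± 0.10 (SE, adjusted p = 7.67e-05) against untreated wells.

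Bcl2l11, which encodes Bim, the BH3-only protein best known in cytokine withdrawal, was the most abundant BH3-only gene per kilobase in all 3 groups and did not pass. It had 169, 176 and 183 CPM in PD-L1 antibody wells, against 191, 196 and 185 CPM in isotype wells and 186, 186 and 189 CPM in untreated wells. All PD-L1 antibody libraries lay below all control libraries, by log2 fold changes of -0.11 ± 0.07 (SE, adjusted p = 0.219) and -0.09 ± 0.07 (SE, adjusted p = 0.319), which did not pass. With total-count scaling they were -0.29 (adjusted p = 0.00502) against the isotype antibody and -0.24 (adjusted p = 0.0134) against untreated wells.

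Bad, whose product is kept inactive by growth factor signals, had 41.1, 34.7 and 39.8 CPM in PD-L1 antibody wells, against 30.9, 33.1 and 27.1 CPM in isotype wells and 32.7, 38.2 and 39.6 CPM in untreated wells. It was above the isotype group without overlap (log2 fold change 0.33 ± 0.11, SE, adjusted p = 0.0318) and overlapped the untreated group (0.06 ± 0.11, SE, adjusted p = 0.664). The call against the isotype antibody was lost without PD-L1 antibody 1 or 3 or isotype antibody 4 or 6 (adjusted p = 0.066 to 0.118) and with total-count scaling (adjusted p = 0.218), and 20.5% of its exonic bases overlap Gpr137 on the other strand. Bid, which caspase 8 cuts to link death receptors to mitochondria, had 53.2, 52.9 and 52.3 CPM in PD-L1 antibody wells, against 48.1, 45.0 and 53.9 CPM in isotype wells and 50.1, 39.9 and 41.3 CPM in untreated wells. Bid overlapped the isotype group (log2 fold change 0.11 ± 0.10, SE, adjusted p = 0.426) and was above the untreated group (0.27 ± 0.10, SE, adjusted p = 0.0472). That call was lost when any of the 3 PD-L1 antibody libraries, isotype antibody 4 or 5, or untreated 8 or 9 was left out (adjusted p = 0.0517 to 0.174), and with total-count scaling (adjusted p = 0.384). With edgeR its adjusted p was 0.0527. Its transcript matches that of Bcl2l13 without a mismatch over 629 bases, so reads may be shared, and Bcl2l13 was itself higher than in untreated wells (0.53 ± 0.11, SE, adjusted p = 0.00343).

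Bnip3l, which encodes Nix, a mitochondrial protein of mitophagy related to the BH3-only group, had 98.8 ± 10.6 CPM in PD-L1 antibody wells, 102 ± 6.43 CPM in isotype wells and 111 ± 20.4 CPM in untreated wells, and passed in neither comparison. Without untreated 7 it was called against untreated wells (-0.31 ± 0.09, SE, adjusted p = 0.0161). Its transcript is 99.38% identical to the pseudogene Bnip3l-ps over 1131 bases, so its level is uncertain. Bik was listed in 7 of the 9 libraries, at 0.111 CPM or less, and Hrk in 2, at 0.109 CPM in isotype antibody 6 and 0.0547 CPM in untreated 9. Neither was deep enough for a comparison. Bbc3, Pmaip1 and Bmf together came to 24.2 ± 2.502 CPM per kilobase in PD-L1 antibody wells, against 51.2 ± 4.52 CPM per kilobase in isotype wells and 62.6 ± 3.65 CPM per kilobase in untreated wells.

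**Figure D3:**
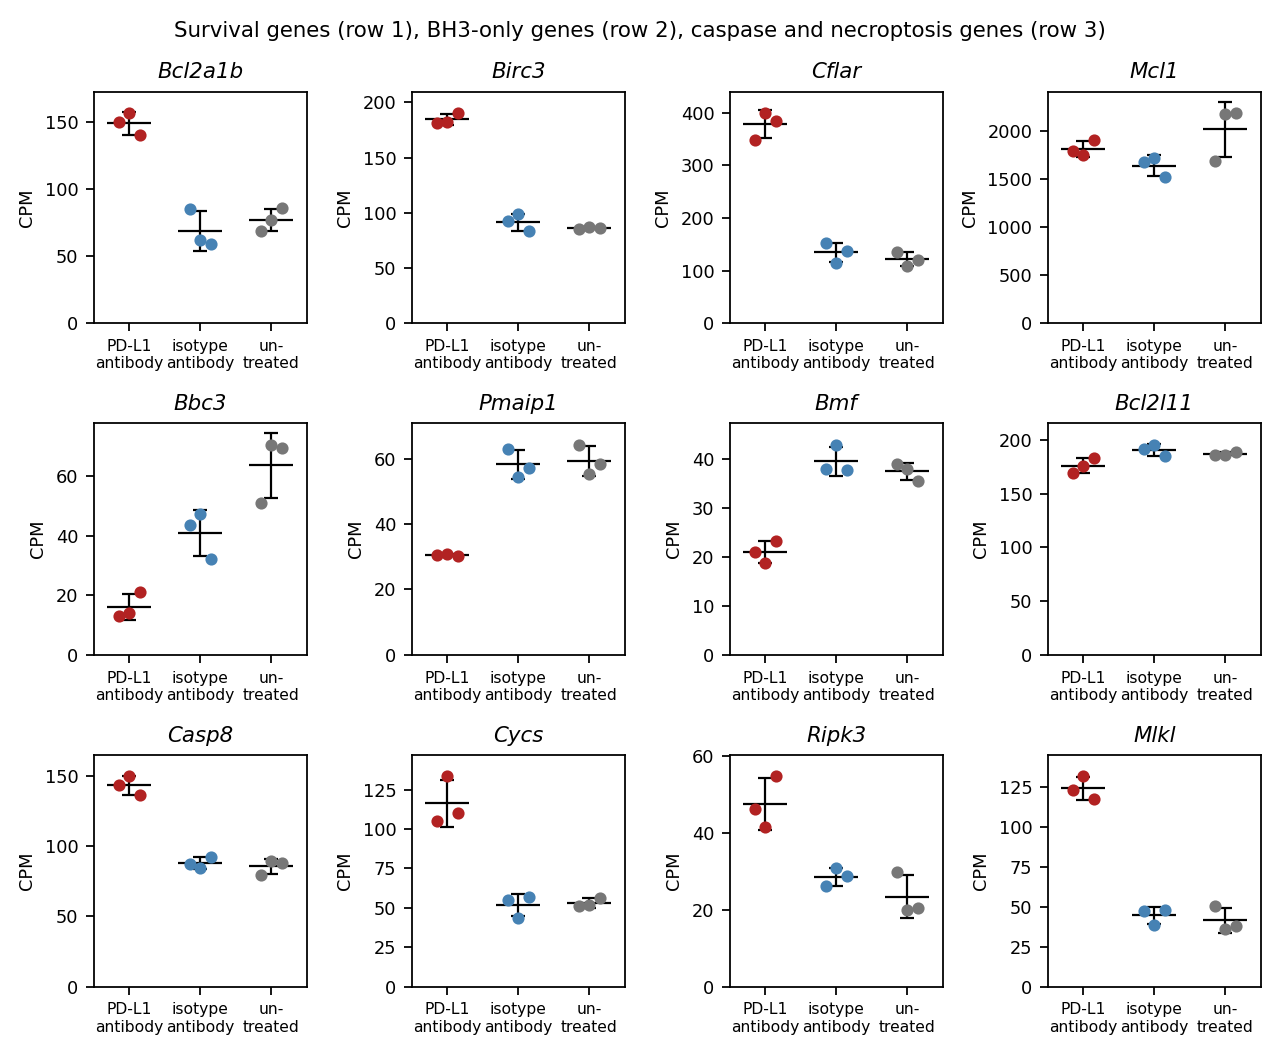
CPM of 12 members in each library (points) with the mean and SD of each group of 3 (lines), on linear axes that start at 0. Bcl2a1b, Birc3, Cflar, Casp8, Cycs, Ripk3 and Mlkl are higher and Bbc3, Pmaip1 and Bmf lower in all PD-L1 antibody libraries than in all control libraries. Bcl2l11 is also lower in all PD-L1 antibody libraries, by a small margin, and was called in neither comparison. Mcl1 overlaps with the untreated group.

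Among the 7 genes of caspases and the apoptosome, Casp8, Apaf1 and Cycs were higher with the PD-L1 antibody in both comparisons, and Casp2 or Casp6 was lower in 1 comparison each. Casp8, which encodes the caspase that starts death receptor apoptosis and also holds necroptosis back, had 143, 149.8 and 137 CPM in PD-L1 antibody wells, against 87.6, 84.3 and 92.4 CPM in isotype wells and 79.4, 89.4 and 88.0 CPM in untreated wells. The control groups overlapped each other and lay below all PD-L1 antibody libraries, with log2 fold changes of 0.70 ± 0.08 (SE, adjusted p = 4.29e-05) against the isotype antibody and 0.74 ± 0.08 (SE, adjusted p = 2.6e-05) against untreated wells. Casp8 stood at 1.63 times its isotype mean, while its inhibitor gene Cflar stood at 2.81 times.

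Apaf1, the scaffold on which caspase 9 is activated, had 101, 100.4 and 96.4 CPM in PD-L1 antibody wells, against 70.9, 68.6 and 70.5 CPM in isotype wells and 66.6, 61.4 and 61.9 CPM in untreated wells. Its libraries were tight within groups and did not overlap between them, with log2 fold changes of 0.50 ± 0.07 (SE, adjusted p = 0.000207) against the isotype antibody and 0.64 ± 0.07 (SE, adjusted p = 3.11e-05) against untreated wells. The isotype libraries were also above the untreated ones, by 0.14 ± 0.07 (SE), which did not pass (adjusted p = 0.403). Cycs, which encodes somatic cytochrome c, an electron carrier of respiration and the trigger of the apoptosome, had 105, 133 and 110.3 CPM in PD-L1 antibody wells, against 54.7, 43.8 and 56.9 CPM in isotype wells and 51.0, 51.6 and 56.4 CPM in untreated wells. The groups did not overlap, with log2 fold changes of 1.15 ± 0.12 (SE, adjusted p = 2.2e-05) and 1.11 ± 0.12 (SE, adjusted p = 2.68e-05). Its transcript matches the annotated genes Gm10053, Gm10108 and Gm13772 at 99.37% identity or more, so the level is uncertain.

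Casp9, the caspase that Apaf1 activates, passed in neither comparison, with 48.9 ± 2.60 CPM in PD-L1 antibody wells, 52.7 ± 1.14 CPM in isotype wells and 50.1 ± 3.04 CPM in untreated wells. Diablo, whose product frees caspases from IAPs, likewise passed in neither, with 26.0 ± 2.39 CPM in PD-L1 antibody wells, 24.7 ± 0.841 CPM in isotype wells and 25.5 ± 0.588 CPM in untreated wells. Its exons overlap those of B3gnt4 on the other strand and of Gm49027 on the same strand. With total-count scaling Casp9 was called lower than with the isotype antibody (-0.28, adjusted p = 0.019).

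Casp2, a caspase activated by stress in the nucleus and cytosol, had 26.5, 29.1 and 28.2 CPM in PD-L1 antibody wells, against 36.1, 37.7 and 34.2 CPM in isotype wells and 25.9, 33.2 and 34.7 CPM in untreated wells. It was below the isotype group without overlap (log2 fold change -0.36 ± 0.11, SE, adjusted p = 0.0262). It did not pass against untreated wells (-0.15 ± 0.11, SE, adjusted p = 0.306), where untreated 7 lay below all PD-L1 antibody libraries. The call against the isotype antibody was lost without PD-L1 antibody 1 or 3 or isotype antibody 4 or 5 (adjusted p = 0.0589 to 0.0926). Without untreated 7, Casp2 was called against untreated wells as well (-0.28 ± 0.08, SE, adjusted p = 0.0163), and so it was with total-count scaling (-0.29, adjusted p = 0.0345). Casp6, an executioner caspase, had 12.4, 11.5 and 12.4 CPM in PD-L1 antibody wells, against 14.1, 17.1 and 12.8 CPM in isotype wells and 14.3, 17.1 and 16.2 CPM in untreated wells. All PD-L1 antibody libraries were below all others, with a log2 fold change of -0.37 ± 0.12 (SE, adjusted p = 0.0298) against untreated wells and of -0.25 ± 0.12 (SE, adjusted p = 0.125) against the isotype antibody. The call against untreated wells was lost without any of the 3 PD-L1 antibody libraries, untreated 8 or untreated 9 (adjusted p = 0.0589 to 0.109). With total-count scaling Casp6 was called lower than with the isotype antibody as well (-0.42, adjusted p = 0.0134).

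Of the 5 death receptor adaptors and necroptosis genes, the necroptosis pair Ripk3 and Mlkl was higher in both comparisons, and the receptor-proximal genes Fadd, Tradd and Ripk1 passed in neither. Mlkl encodes the executioner of necroptosis, a pseudokinase that breaks the plasma membrane once RIPK3 has phosphorylated it. It had 123, 132 and 118 CPM in PD-L1 antibody wells, against 47.3, 38.7 and 48.1 CPM in isotype wells and 50.9, 36.4 and 38.0 CPM in untreated wells. The mean was 2.78 times the isotype mean and 2.98 times the untreated mean, with log2 fold changes of 1.46 ± 0.13 (SE, adjusted p = 8.13e-06) and 1.57 ± 0.13 (SE, adjusted p = 4.66e-06). Ripk3 had 46.3, 41.4 and 54.7 CPM in PD-L1 antibody wells, against 26.2, 31.0 and 28.7 CPM in isotype wells and 29.8, 19.9 and 20.4 CPM in untreated wells. It did not overlap with either control group, and untreated 7 lay within the range of the isotype libraries, above untreated 8 and 9. Its log2 fold changes were 0.71 ± 0.15 (SE, adjusted p = 0.00397) against the isotype antibody and 1.01 ± 0.15 (SE, adjusted p = 0.000358) against untreated wells.

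Ripk1 encodes the kinase that passes the death receptor signal to RIPK3 or to survival signalling, and had 102 ± 9.47 CPM in PD-L1 antibody wells, 109.9 ± 7.30 CPM in isotype wells and 101 ± 9.56 CPM in untreated wells. Fadd, the adaptor that recruits caspase 8, had 28.2 ± 1.82 CPM in PD-L1 antibody wells, 29.9 ± 1.52 CPM in isotype wells and 28.7 ± 0.744 CPM in untreated wells. Tradd, the adaptor of tumour necrosis factor receptor 1, had 35.1 ± 2.63 CPM in PD-L1 antibody wells, 34.7 ± 3.97 CPM in isotype wells and 37.7 ± 2.92 CPM in untreated wells. The libraries of these 3 genes overlapped in both comparisons, with log2 fold changes between -0.10 and 0.02. With total-count scaling Fadd (-0.25, adjusted p = 0.0284) and Ripk1 (-0.28, adjusted p = 0.0362) were called lower than with the isotype antibody, and the sign of Tradd turned to -0.15.

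**Figure D4:**
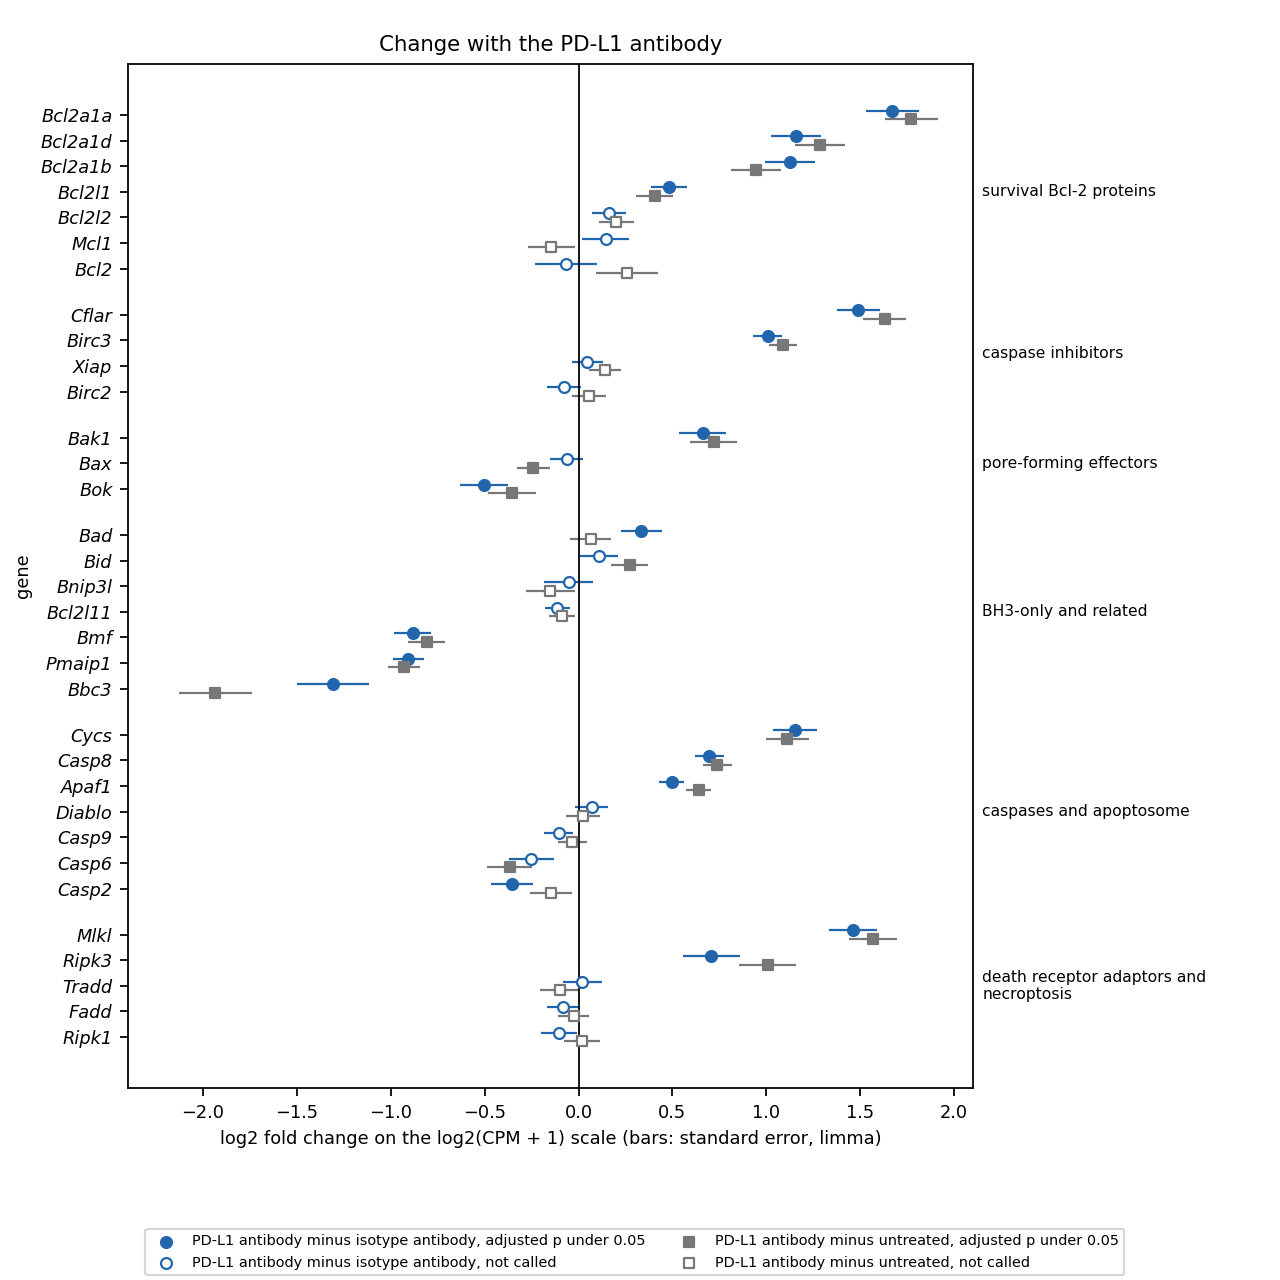
Log2 fold change (points, with standard errors as bars) of the 33 tested genes with the PD-L1 antibody relative to the isotype antibody (blue circles) and to untreated wells (grey squares), on the log2(CPM + 1) scale and grouped by role, with filled symbols for adjusted p under 0.05. Bcl2a1a, Cflar and Mlkl lie near 1.5 or above in both comparisons, and Bbc3 lies lowest at -1.31 and -1.93.

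Summed per kilobase of exon, the 11 survival genes came to 1071 ± 13.8 CPM per kilobase in PD-L1 antibody wells, against 745 ± 52.4 in isotype wells and 855 ± 82.0 in untreated wells. The 24 death genes came to 640.2 ± 16.5 CPM per kilobase in PD-L1 antibody wells, against 548 ± 13.6 in isotype wells and 571 ± 8.39 in untreated wells. Both sums were higher in each PD-L1 antibody library than in any control library, but they move with the TMM factors (0.919 to 0.932 in PD-L1 antibody libraries and 1.009 to 1.063 in the others), whereas a ratio within a library does not. The ratio of survival to death genes was 1.68, 1.69 and 1.64 in PD-L1 antibody wells, against 1.41, 1.38 and 1.29 in isotype wells and 1.35, 1.57 and 1.57 in untreated wells. Mcl1 carries much of this ratio and of its spread between untreated 7 and the other untreated libraries. Without Mcl1 the ratio was 0.864, 0.902 and 0.813 in PD-L1 antibody wells, against 0.553, 0.472 and 0.473 in isotype wells and 0.493, 0.468 and 0.488 in untreated wells. The ratio is of RNA and a description of sums over genes whose proteins do not act in equal measure, and it carries no test.

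By level per kilobase, the order of the genes differed between groups. Mlkl ranked 7 of the 35 in PD-L1 antibody wells, 14 in isotype wells and 17 in untreated wells. Cflar ranked 9 in PD-L1 antibody wells, 18 in isotype wells and 19 in untreated wells, and Bcl2a1a ranked 10 in PD-L1 antibody wells and 21 in both control groups. Bbc3 ranked 29 in PD-L1 antibody wells, 17 in isotype wells and 10 in untreated wells. Many neighbours in this order, such as Tradd, Bad and Bid, lie within their spread of each other.

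The isotype antibody was compared with no antibody to see what antibody protein alone did to these genes. None of the 33 tested members passed by limma (lowest adjusted p = 0.345, for Bbc3). EdgeR and DESeq2 called 0 members as well. Over all genes limma called 1, edgeR 0 and DESeq2 13. This result turned on untreated 7, the shallowest library. Without it 2295 genes were called (16.4% of all tested genes), among them 5 members (15.2% of the 33), a share near that of all genes: Bcl2 (0.50 ± 0.14, SE, adjusted p = 0.0321) and Ripk3 (0.48 ± 0.12, SE, adjusted p = 0.0164) were higher with the isotype antibody than in untreated wells, and Bbc3 (-0.77 ± 0.19, SE, adjusted p = 0.017), Mcl1 (-0.41 ± 0.10, SE, adjusted p = 0.0203) and Bad (-0.35 ± 0.10, SE, adjusted p = 0.0378) were lower. The part of depth or of any other property of untreated 7 in this was not tested. Leaving it out kept all 18 member calls of the PD-L1 antibody against the isotype antibody.

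Beyond these genes, 40 further genes of death pathways were looked at, of which 38 were tested. With the PD-L1 antibody 15 were higher and 5 lower than with the isotype antibody (median log2 fold change 0.20), where 18.2% of all tested genes were higher and 18.2% lower. Relative to untreated wells 16 were higher and 6 lower (median 0.12), beside 22.0% and 20.5% of all tested genes. Those with the lowest p against the isotype antibody include receptor-side genes. Fas, the death receptor of Fas ligand, had 17.9 ± 1.79 CPM in PD-L1 antibody wells, 4.19 ± 0.532 CPM in isotype wells and 3.58 ± 0.643 CPM in untreated wells. Traf2, which brings the cIAPs to receptors, had 61.9 ± 3.06 CPM in PD-L1 antibody wells, 35.9 ± 3.36 CPM in isotype wells and 34.3 ± 5.65 CPM in untreated wells (log2 fold change against the isotype antibody 0.77 ± 0.12, SE, adjusted p = 0.000357). Tnfaip3, which encodes A20, a brake on NF-kB and on death signalling, had 145 ± 11.5 CPM in PD-L1 antibody wells, 49.7 ± 4.69 CPM in isotype wells and 43.0 ± 11.9 CPM in untreated wells (1.52 ± 0.16, SE, adjusted p = 2.48e-05).

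Zbp1, a nucleic acid sensor that can activate RIPK3 directly, had 383 ± 37.9 CPM in PD-L1 antibody wells, 158 ± 18.0 CPM in isotype wells and 161 ± 19.1 CPM in untreated wells (log2 fold change against the isotype antibody 1.27 ± 0.12, SE, adjusted p = 9.83e-06). Zbp1 thus passed, as did Ripk3 and Mlkl of the necroptosis branch, while Ripk1 did not. Bnip3, a mitophagy gene induced by low oxygen and a close relative of Bnip3l, had 54.3 ± 3.21 CPM in PD-L1 antibody wells, 13.4 ± 1.97 CPM in isotype wells and 14.4 ± 1.87 CPM in untreated wells (1.95 ± 0.13, SE, adjusted p = 9.03e-07).

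Parp1 and Birc5 were lower. Parp1, a DNA repair enzyme that executioner caspases cut, had 63.8 ± 0.665 CPM in PD-L1 antibody wells, 92.0 ± 0.221 CPM in isotype wells and 87.1 ± 1.63 CPM in untreated wells (-0.52 ± 0.06, SE, adjusted p = 8.54e-05). Birc5, which encodes survivin, an IAP family member of dividing cells, had 2.498 ± 0.175 CPM in PD-L1 antibody wells, 6.85 ± 1.21 CPM in isotype wells and 6.27 ± 1.74 CPM in untreated wells (-1.15 ± 0.18, SE, adjusted p = 0.000446).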

How the data were processed

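Libraries of oligo(dT)-enriched RNA from 9 samples were sequenced in pairs of 150-base reads. Partek and STAR are named in the submitters' processing notes, without versions, and the genome build is not given in the sources used here. Positions matched GRCm38, since 21718 of 21923 symbols (99.1%) overlapped the GENCODE M21 gene of that name. For each RefSeq transcript the deposited tables give, per the file headers, read counts, average coverage (the signal per exonic base), exon length and GC percent. The deposited counts take in the whole genomic span, introns included, so exonic read equivalents were used, which are average coverage times exon length divided by 150, for the transcript per symbol with the most. They came to 68.03 to 70.88% of the span reads. The GC percent values of the deposited files were not used.

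Genes were filtered by edgeR's filterByExpr (13743 of 22376 kept), scaled by TMM (factors 0.919 to 0.932 in PD-L1 antibody libraries and 1.009 to 1.063 in the others) and tested as log2(CPM + 1) in limma with a trended variance, 1 mean per group, all 9 libraries in 1 fit, two-sided, with Benjamini-Hochberg adjustment over all tested genes and a threshold of 0.05. Alternatives were total-count and DESeq2 scaling, no filter, pseudocounts of 0.5 and 4, edgeR's quasi-likelihood test, DESeq2, edgeR on the deposited span counts, another choice of transcript, a threshold of 0.01, fits of 2 groups alone, and leaving out each library. Members and lists were chosen with earlier results of these data known. A member has its value in each library printed where it passed without overlap against either control group. The rule also took the 8 further death pathway genes with the lowest p, of which 1 is not reported here. The labels name no molecular identifiers, so PCR copies may count repeatedly, and depth limits Bok, Bik and Hrk most. Near-identical genes were sought among GENCODE transcripts from 150 aligned bases and 98% identity. The procedure was also run on simulated counts with few changed genes, equally many up and down, a setting that cannot check the scaling. Fits were made in R 4.3.3 (DESeq2 1.42.0, edgeR 4.0.16, limma 3.58.1), and tables and figures in Python 3.11.15 (matplotlib 3.10.9, numpy 2.4.6, pandas 2.3.3).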

Additional observations from a re-analysis of the deposited data

How the results depend on the processing

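Of the 37 member calls with the PD-L1 antibody, 29 held under each of the 20 alternatives and 8 were lost under at least 1 (Bok, Bad and Casp2 against the isotype antibody, and Bcl2l1, Bax, Bok, Bid and Casp6 against untreated wells). Over the 740 values, 681 kept the call, 59 lost it and 0 changed sign. Of the 33 tested members, 5 were lower than with the isotype antibody (18.2% of all tested genes were). With total-count scaling 11 were lower (30.1% of all tested genes), and at a threshold of 0.01 3 were (11.2%). Members lower than in untreated wells numbered 6 (20.5% of all tested genes), but 3 at 0.01 (13.0%) and 3 to 8 when a library was left out. They were 3 without PD-L1 antibody 1, PD-L1 antibody 2, untreated 8 or untreated 9, and 8 without untreated 7. At 0.01 all genes called fell to 3228 against the isotype antibody and 3821 against untreated wells, where the threshold of 0.05 gave 4997 and 5831. Between isotype and untreated wells all genes called were 1, against 2 with total-count scaling, 0 with edgeR, 13 with DESeq2, 2 with edgeR on the deposited span counts, 0 at 0.01, 0 with the 2 groups alone, and 0 to 2295 when a library was left out. Members called there were 0 to 2 higher and 0 to 3 lower when a library was left out, with all 5 appearing without untreated 7. In that fit 9.56% of all tested genes were higher and 6.85% lower. The cause of these calls was not tested. No paired analysis was possible because the groups share no replicate numbers. Low depth limits Bok, Bik and Hrk, and near-identical copies limit the A1 genes, Cycs and Bnip3l, and shared stretches Cflar, Bid and Birc3.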
